A study of Mus musculus with 8 samples.

Results

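The 8 genes of the myelin septin scaffold and its neighbours in the cytoskeleton are described here: the septin genes Sept2, Sept4, Sept7 and Sept8, the anillin gene Anln, the tubulin polymerization promoting protein genes Tppp and Tppp3, and the guanine nucleotide exchange factor gene Arhgef10. They are the 8 genes with these symbols among 54532 gene rows, and they fill 9 rows because Sept2 has 2 identifiers. Tppp3, Anln and Arhgef10 were selected on their lower values in the libraries labelled Nsun5-KO, so their differences are given as descriptions with no test. The other 5 were taken for their place in the scaffold and could be tested, although earlier results of these data were known when they were chosen. The libraries held brain RNA of male mice aged 3 months that had been anaesthetised with pentobarbital, 4 wild type (WT) and 4 labelled Nsun5-KO, called KO-labelled libraries below. The protocol speaks of 5 mice per genotype, littermates of each other. Neither the Nsun5 allele nor the way it was made is named in the labels, which also do not say whether each library is 1 mouse. If it is not, p-values measure a spread that may be technical.

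Septins are GTP-binding proteins that join end to end into filaments under the cell membrane. In central myelin, filaments of septins and anillin run along the innermost layer next to the axon, a part of the sheath that keeps its cytoplasm, and they are known for holding the sheath in shape and preventing outfoldings. Tppp is an oligodendrocyte protein that bundles microtubules and helps to nucleate them in the processes that form myelin. Tppp3 is its shorter paralogue, which multiciliated cells express too. Arhgef10 activates the small GTPase RhoA, and its human gene is known for variants that slow conduction in peripheral nerves.

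Each library held 15642086 to 17829523 counts, and no pair of replicates agreed within sampling noise (chi-square per degree of freedom 7.77 to 22.3). The targeted gene Nsun5 stood at 5.29, 5.26, 6.23 and 6.18 CPM (counts scaled to library size) in WT and at 6.41, 7.32, 5.16 and 6.24 CPM in the KO-labelled group. Its RNA was thus not lower there, and directions are those of the labels. Pom121 overlaps its end on the opposite strand, and whether reads from the overlap were counted for Nsun5 was not tested. WT replicates 1 and 2 stood apart from the other 6 libraries on the first principal component (25.7% of the variance), and KO-labelled replicates 1 and 3 had the lowest oligodendrocyte signal, so values without each pair are given for the tested members. Markers of neurons, astrocytes and oligodendrocytes were abundant. Those of cerebellar granule and Purkinje cells, Gabra6 (0 to 30 counts) and Pcp2 (0 to 19), chosen with their values known, were nearly absent from libraries which the design text assigns to the whole brain. EdgeR called 0 of 16062 genes at an adjusted p below 0.05 (0%), with 1663 at an unadjusted p below 0.05 (10.4%), and DESeq2 called 97 of 13977 (0.694%).

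Per gene length, Tppp was the most abundant of the 8 genes and the septins of myelin followed. On the FPKM scale, where counts are divided by gene length and library size, the level over all 8 libraries was 126 to 156 for Tppp (mean 140.4), 46.7 to 59.8 for Sept8, 32.7 to 55.5 for Sept4 and 37.9 to 45.8 for Sept7. The ranges of Sept8 and Sept4 overlapped, as did those of Sept4 and Sept7. Within libraries, Sept8 lay above Sept4 in all but WT replicate 3 (55.3 against 55.5 FPKM). Sept4 lay above Sept7 in some libraries and below it in others. Tppp3 lay at 13.7 to 26.1 FPKM. Arhgef10 (3.64 to 5.79) and Anln (3.12 to 5.49) lay lowest and overlapped almost completely. Sept2 was listed at 0.0233 to 0.135 FPKM, a level that its annotation makes unreliable, as described below.

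**Figure D1:**
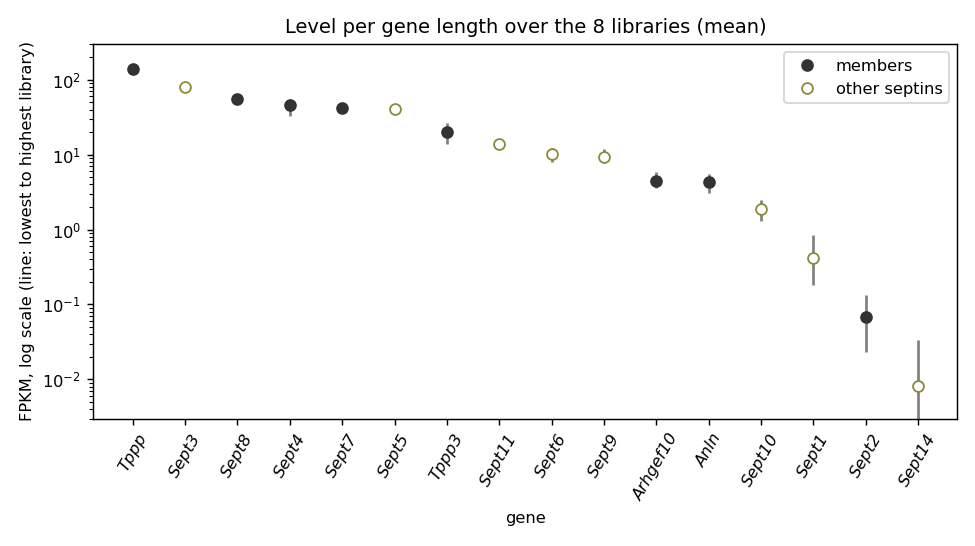
Level per gene length (FPKM, log axis) of the 8 genes (filled) and of the other septins with at least 1 count (open). Points are means over the 8 libraries and lines run from the lowest to the highest library; Tppp leads with a mean of 140.4, and the Anln and Arhgef10 lines overlap.

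The groups separated completely for Tppp3, Anln and Arhgef10 and overlapped for the other 5 genes. Of all genes tested, 2.71% lay lower in the KO-labelled group with no overlap (5.70% in either direction), but these 3 were picked for such values, and nothing follows from their count. Among the 4 other members that passed the filter on low counts, 0 were called by edgeR (unadjusted p 0.0516 to 0.282) or by DESeq2 (adjusted p 0.360 to 0.770). Sept8, Tppp and Sept7 lay slightly above WT and Sept4 below it, where 51.4% of all genes tested lay. The 95% intervals of these 4 genes all included 0, so nothing follows from the side of WT on which each lay. In RNA from whole tissue, fewer cells of a type and less RNA per cell cannot be told apart.

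**Figure D2:**
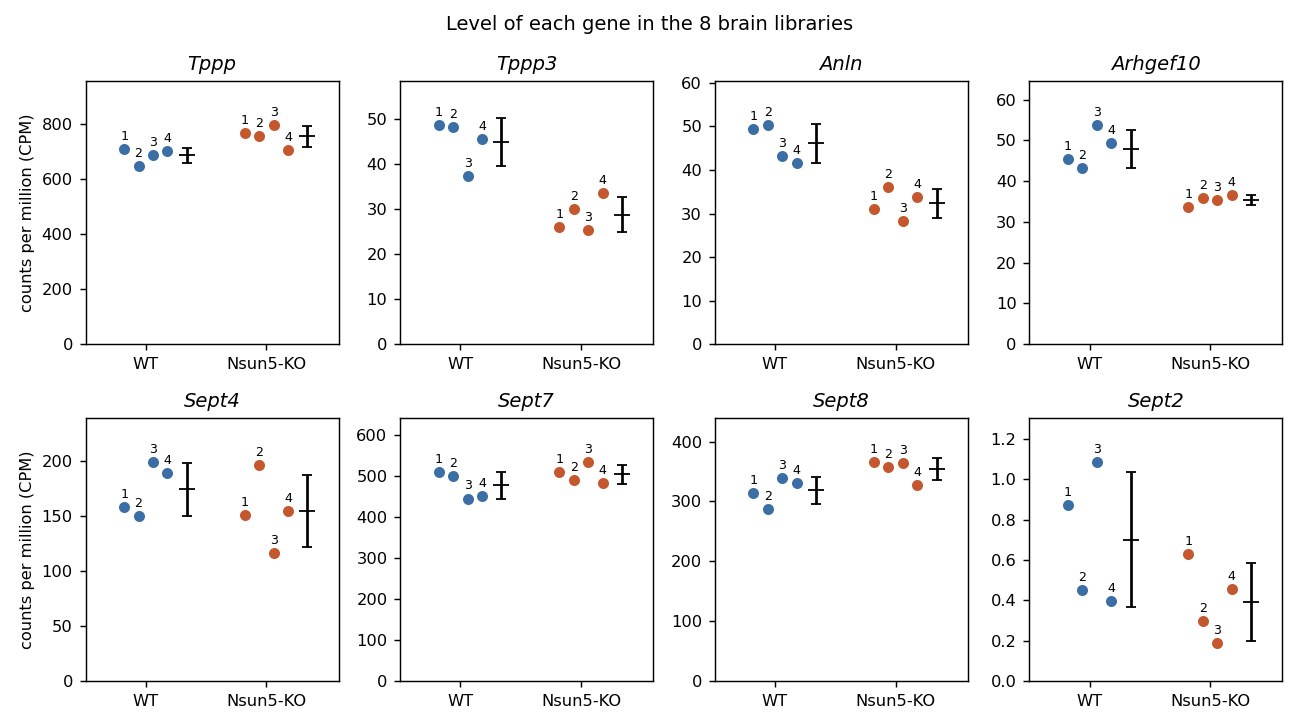
Level of each gene in CPM in the 8 libraries, with replicate numbers beside the points and the mean ± SD (n = 4) in black; each axis starts at 0. The KO-labelled libraries all lie below the WT libraries for Tppp3, Anln and Arhgef10, and the groups overlap in the other panels.

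Tppp3 (ENSMUSG00000014846, mm10 chromosome 8, 105467493 to 105471526) had the largest difference of the 7 members tested. Its CPM was 48.7, 48.2, 37.3 and 45.4 in WT replicates 1 to 4 and 26.1, 30.0, 25.4 and 33.6 in KO-labelled replicates 1 to 4. Replicate 3 was the lowest WT library, and it still lay above KO-labelled replicate 4, the highest of its group. The means were 44.9 ± 5.29 CPM in WT against 28.8 ± 3.79 CPM in the KO-labelled group (SD, n = 4 per group), a log2 fold change of -0.64 with an SE of 0.11 and a 95% interval from -0.88 to -0.40. Leaving out single libraries kept it between -0.72 and -0.58, and it was -0.52 without WT replicates 1 and 2 and -0.50 without KO-labelled replicates 1 and 3.

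Tppp (ENSMUSG00000021573, mm10 chromosome 13, 74009407 to 74035753), the main family member in oligodendrocytes, lay on the other side of WT from Tppp3. It had 709, 648, 687 and 703 CPM in WT against 768, 757, 798 and 705 CPM in the KO-labelled group. The highest WT library, replicate 1, lay just above the lowest KO-labelled library, replicate 4, so the groups overlapped. The means were 687 ± 27.4 and 757 ± 38.7 CPM (SD, n = 4 per group). The log2 fold change was 0.14 with an SE of 0.06 and a 95% interval from -0.0011 to 0.28 (adjusted p = 0.485 by edgeR, and 0.0571 by the exact two-sided permutation test). The difference was not called, and its interval spans 0 and 0.28. It was 0.12 without WT replicates 1 and 2 and 0.09 without KO-labelled replicates 1 and 3. The pseudogene Gm6263 within Tppp had at most 2 counts in a library.

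The share of Tppp3 relative to Tppp combines both differences. Tppp3 stood at 18.9%, 20.5%, 14.97% and 17.8% of the Tppp level, on the FPKM scale, in WT replicates 1 to 4. The share was 9.38%, 10.9%, 8.80% and 13.1% in the KO-labelled group. All 4 of these lay below the lowest WT share, a gap that the choice of Tppp3 largely fixes. The third gene of the family, Tppp2, had 1 count in all 8 libraries together.

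Markers of the ventricle lining lay below WT as Tppp3 did. The 12 genes of ependymal and ciliated cells were all below WT (median log2 fold change -1.10, against -0.01 over all genes tested), 11 of them lower at an unadjusted edgeR p below 0.05, where 5.05% of all genes were. On the log2(FPKM + 1) scale, which understates low genes, the median was -0.49. Their summed level was 37.6 to 55.4 CPM in WT against 15.4 to 29.0 CPM in the KO-labelled group. No marker was at 0, but some came near it, as Pifo with 1 count and Dnah11 with 2 in KO-labelled replicate 2. The summed level was lowest in KO-labelled replicate 2, and Tppp3 was lowest in replicate 3. The 10 choroid plexus genes were below WT as well (median -0.89), with 0 called by edgeR and 0 lower at an unadjusted p below 0.05. The median was -1.83 without KO-labelled replicate 1, -0.59 without its replicate 2, -0.54 without its replicate 4, -2.50 without its replicates 1 and 3 and -0.26 without WT replicates 1 and 2. Their summed level in KO-labelled replicate 1, 1220.1 CPM, was the highest of the 8 libraries, and Tppp3 stood at 26.1 CPM there. Hypothalamic genes, 7 of 7 below WT (median -1.92, and -0.62 on that FPKM scale), summed to 32.6 to 85.3 CPM in WT against 13.2 to 23.9 CPM. The part of these cells, or of the region taken, in the Tppp3 difference was not tested.

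Anln (ENSMUSG00000036777, mm10 chromosome 9, 22332012 to 22389188) encodes anillin, which links actin, myosin and septins in the contractile ring of dividing cells and joins the septin filaments of myelin. It had 49.3, 50.3, 43.1 and 41.5 CPM in WT against 31.0, 36.1, 28.4 and 33.9 CPM in the KO-labelled group. Replicate 2 was the highest in either group, and KO-labelled replicate 3 the lowest of all. The means were 46.1 ± 4.40 and 32.3 ± 3.37 CPM (SD, n = 4 per group), a log2 fold change of -0.51 with an SE of 0.10 and a 95% interval from -0.72 to -0.30, and single libraries left out kept it between -0.57 and -0.45. It was -0.39 and -0.40 without the 2 pairs of libraries that stood apart.

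Because anillin serves dividing cells as well as myelin, its promoter is shown. RefSeq gives 1 start site for Anln (GRCm38.p6, minus strand, chr9:22389157-22389456, from 250 bases before the start to 50 after). Capitals mark TTTGAA, the cell cycle homology region known from genes of the late cell cycle, searched on both strands.
Anln: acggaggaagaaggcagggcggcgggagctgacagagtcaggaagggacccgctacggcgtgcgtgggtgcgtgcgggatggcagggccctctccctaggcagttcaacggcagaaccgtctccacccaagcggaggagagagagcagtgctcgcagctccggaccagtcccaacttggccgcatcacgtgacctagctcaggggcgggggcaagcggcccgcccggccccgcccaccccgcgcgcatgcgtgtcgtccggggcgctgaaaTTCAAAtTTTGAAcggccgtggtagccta
The window holds the motif on the minus strand of the printed sequence at bases 22 to 27 and on the plus strand at bases 29 to 34, counted from 1 at the start site. Of 32851 RefSeq windows of the same length, 17.9% hold it. Windows were found for 6 of the 8 genes, and not for Tppp3 and Arhgef10.

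Genes of cell division were sparse and mostly lower in the KO-labelled group. Of 12 such genes 8 were tested, and 7 lay below WT (median log2 fold change -0.59). EdgeR called 0, with 3 lower at an unadjusted p below 0.05, where 5.05% of all genes were. The proliferation marker Mki67 had 21, 48, 31 and 76 counts in WT against 12, 22, 26 and 21 in the KO-labelled group (log2 fold change -1.10, SE 0.39, edgeR adjusted p = 0.406). The counts overlapped, since WT replicate 1 was no higher than 3 of the 4 KO-labelled libraries. Kif23, a motor of the midbody, lay at -0.95 (adjusted p = 0.361) and Top2a, a topoisomerase of dividing cells, at -0.98 (adjusted p = 0.416). Citron kinase, Cit, which neurons also express, lay at 0.21 and made up most of the list's summed level of 103 to 150.2 CPM in WT against 129 to 142 CPM in the KO-labelled group. Anln stood at 41.5 to 50.3 CPM in WT and at 28.4 to 36.1 CPM in the KO-labelled group. Mki67 stood at 1.22 to 4.31 CPM in WT and at 0.755 to 1.62 CPM in the KO-labelled group. The part of dividing cells in the Anln difference was not tested. On the log2(FPKM + 1) scale the list's median was -0.08.

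Arhgef10 (ENSMUSG00000071176, mm10 chromosome 8, 14911663 to 15001085) had 45.5, 43.2, 53.8 and 49.4 CPM in WT against 33.8, 35.8, 35.4 and 36.5 CPM in the KO-labelled group. The latter 4 lay within 3 CPM of each other, and all were below the lowest WT library, replicate 2. The means were 48.0 ± 4.65 and 35.4 ± 1.17 CPM (SD, n = 4 per group), a log2 fold change of -0.44 with an SE of 0.08 and a 95% interval from -0.62 to -0.26, and the difference was -0.55 and -0.41 without the same pairs. The antisense gene Gm16350 within it had at most 3 counts in a library.

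Other exchange factors and effectors of small GTPases did not lie with Arhgef10. Of the 15 genes 5 lay below WT and 10 above (median log2 fold change 0.06), 0 were called by edgeR, and Arhgef7 alone was higher at an unadjusted p below 0.05, where 5.30% of all genes were. Arhgef10l, the closest paralogue, had 51.3 ± 9.61 CPM in WT against 52.4 ± 6.27 CPM in the KO-labelled group (log2 fold change 0.03, edgeR adjusted p = 0.960). Arhgef7 lay at 0.14 (adjusted p = 0.464), Arhgef17 at 0.13 (adjusted p = 0.534) and the kinase gene Rock2 at 0.14 (adjusted p = 0.635). Rhoa itself, the GTPase that Arhgef10 acts on, had 129 ± 5.84 and 126 ± 4.51 CPM (log2 fold change -0.03).

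Among the septins of myelin, Sept4 varied most between libraries. Sept4 (ENSMUSG00000020486, mm10 chromosome 11, 87568903 to 87590539) is a septin that oligodendrocytes and astrocytes express. It had 158, 151, 199.8 and 189 CPM in WT against 151, 197, 117 and 154 CPM in the KO-labelled group. KO-labelled replicate 3 was the lowest of all and KO-labelled replicate 2 the second highest, so the groups overlapped widely. The means were 174 ± 23.8 and 155 ± 32.8 CPM (SD, n = 4 per group). The log2 fold change was -0.17 with an SE of 0.15 and a 95% interval from -0.51 to 0.16 (adjusted p = 0.743 by edgeR, and 0.429 by the exact two-sided permutation test). The difference was -0.06 without KO-labelled replicate 3, -0.31 without its replicate 2 and 0.01 without its replicates 1 and 3, was -0.33 without WT replicates 1 and 2, and was -0.10 without WT replicate 3.

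RefSeq gives Sept4 4 start sites, and the window of the most downstream of them is shown because it alone held a searched motif (GRCm38.p6, plus strand, chr11:87580811-87581110). Capitals mark ACAAAG, a core of SOX factor sites, and CCAAT, the CCAAT box, both searched on both strands, as was the SOX core ACAATG.
Sept4: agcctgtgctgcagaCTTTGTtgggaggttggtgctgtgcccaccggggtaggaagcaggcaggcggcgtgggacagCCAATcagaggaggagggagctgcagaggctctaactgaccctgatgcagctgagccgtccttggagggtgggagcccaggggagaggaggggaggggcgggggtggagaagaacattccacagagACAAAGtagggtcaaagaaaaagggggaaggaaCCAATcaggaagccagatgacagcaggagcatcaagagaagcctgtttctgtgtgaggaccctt
ACAAAG lies at bases -235 to -230 on the minus strand and -47 to -42 on the plus strand, and CCAAT at -173 to -169 and -14 to -10, all before the start site. ACAAAG occurs in 18.7% of all windows, CCAAT in 37.4% and ACAATG in 12.6%. No window of Anln, Tppp, Sept8 or Sept2 held any of the 3. Of the 2 Sept7 windows, the first held ACAAAG at -83 to -78 and TTTGAA at -35 to -30, and the second TTTGAA at -5 to 1.

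Sept7 and Sept8 varied little between libraries. Sept7 (ENSMUSG00000001833, mm10 chromosome 9, 25252439 to 25308571), a core subunit of septin filaments, had 509, 500.4, 445 and 451 CPM in WT against 508, 491, 535 and 482 CPM in the KO-labelled group. All but KO-labelled replicate 3 lay within the WT range (476 ± 33.2 and 504 ± 23.3 CPM, SD, n = 4 per group). The log2 fold change was 0.08 with an SE of 0.07 and a 95% interval from -0.07 to 0.23 (adjusted p = 0.737 by edgeR, and 0.257 by the exact two-sided permutation test), and it was 0.05 without WT replicate 3, WT replicate 4 or KO-labelled replicate 3, 0.03 without KO-labelled replicates 1 and 3 and 0.17 without WT replicates 1 and 2.

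Sept8 (ENSMUSG00000018398, mm10 chromosome 11, 53519257 to 53549565), a septin enriched in myelin, had 315, 287, 339.8 and 331 CPM in WT against 367, 358, 364 and 327 CPM in the KO-labelled group. KO-labelled replicates 1 to 3 lay above all WT libraries and replicate 4 did not. The means were 318 ± 23.0 and 354 ± 18.3 CPM (SD, n = 4 per group). The log2 fold change was 0.15 with an SE of 0.07 and a 95% interval from -0.0045 to 0.31 (adjusted p = 0.488 by edgeR, and 0.0857 by the exact two-sided permutation test). Leaving out WT replicate 2 gave 0.10, and leaving out WT replicates 1 and 2 gave 0.07. The difference was 0.10 without KO-labelled replicates 1 and 3.

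Sept2 could not be measured with these counts. Its first identifier (ENSMUSG00000026276, mm10 chromosome 1, 93478964 to 93510260) had 15, 7, 18 and 7 counts in WT against 10, 5, 3 and 8 in the KO-labelled group, too few for the filter on low counts (exact permutation p of CPM = 0.2). The second (ENSMUSG00000116048, 93478993 to 93509733) had 0 counts in all 8, where a count of 0 allows up to 3 counts, or 0.168 to 0.192 CPM. Both lie on the plus strand. In GENCODE M21, 100% of the 3335 exonic bases of the second identifier are also exonic in the first, and 41.8% of the first lie in the second. A read in the shared bases matches both identifiers. Whether the authors' counting dropped such reads was not tested, and the level of Sept2 is not interpreted.

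**Figure D3:**
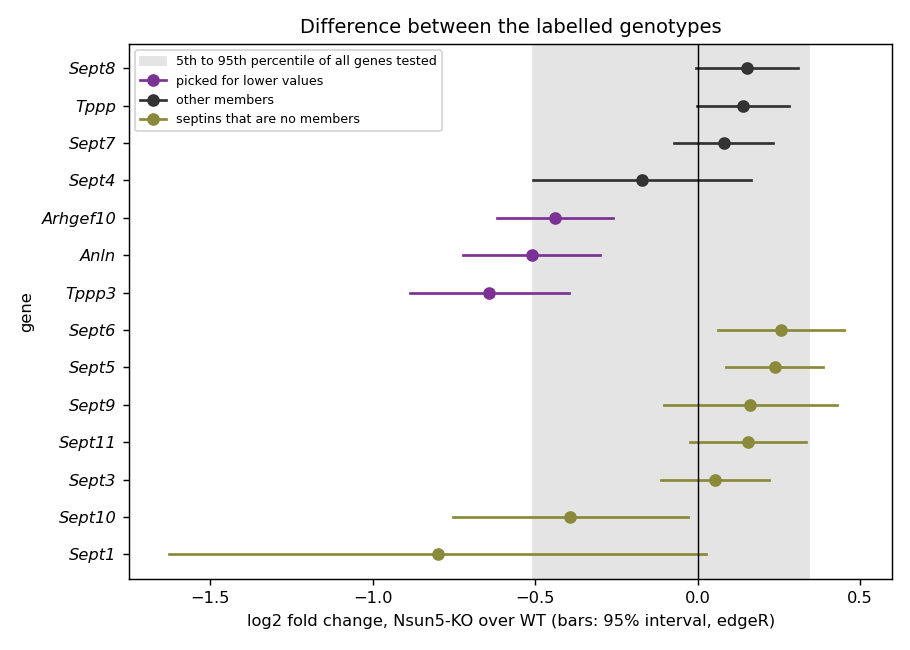
Log2 fold change of the KO-labelled over the WT libraries with 95% intervals (edgeR) for the 7 tested members and 7 other tested septins; grey marks the 5th to 95th percentile of all genes tested, -0.51 to 0.34. Tppp3 lies below the grey range and Anln at its edge. Sept4, Sept7, Sept8 and Tppp lie inside it with intervals that reach 0. The intervals of Tppp3, Anln and Arhgef10 take no account of their selection on lower values, so their distance from 0 is no test.

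The septins outside the myelin set were mostly above WT. Of the 9 genes 7 were tested, 5 lay above and 2 below (median log2 fold change 0.16), and edgeR called 0. At an unadjusted p under 0.05, 2 were higher and 1 was lower, against 5.30% and 5.05% of all genes tested. Sept5, a septin of presynaptic terminals, had 142, 139.6, 149.9 and 159 CPM in WT against 185, 164, 178 and 169 CPM in the KO-labelled group. Its groups did not overlap (log2 fold change 0.24, SE 0.07, edgeR adjusted p = 0.323), and 2.99% of all genes tested lay higher in that way. Sept6 lay at 0.26 (adjusted p = 0.400), Sept11 at 0.16, Sept9 at 0.16, and the neuronal septin Sept3 at 0.05. Sept10 lay at -0.39 (adjusted p = 0.450) and Sept1, with 154 counts in all, at -0.80. The median was 0.06 without KO-labelled replicate 3, 0.10 without WT replicate 3 and -0.05 without KO-labelled replicates 1 and 3. Neuron markers were above WT in the same libraries for 9 of 10 genes (median 0.20), with a summed level of 6530.2 to 6989 CPM in WT against 7679 to 8187 CPM in the KO-labelled group. Their part in the septin values was not tested.

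Regulators that recruit septins lay near WT. Of 9 genes, the GTPases Cdc42, Rhoa, Rhob and Rac1 and the Cdc42 effectors that bind septins, 8 lay below WT, at a median of -0.04 (log2 fold change), and edgeR called 0, also at an unadjusted p below 0.05. Cdc42 had 337 ± 33.3 and 329.5 ± 14.5 CPM (log2 fold change -0.03). Cdc42ep1 lay at -0.24 (edgeR adjusted p = 0.725), and its 11.01 CPM in KO-labelled replicate 3 compared with 20.5 to 25.5 CPM in the other 7 libraries. Cdc42ep2 lay at -0.23 (adjusted p = 0.606), Cdc42ep5 at -0.58 (adjusted p = 0.686), Cdc42ep3 at -0.10 and Cdc42ep4 at 0.03.

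Tubulins and other microtubule genes were balanced around WT. Of 24 genes 23 were tested, with 11 below and 12 above and a median log2 fold change of 0.02. EdgeR called 0, and 2 were higher at an unadjusted p below 0.05, where 5.30% of all genes were. They were Stmn1, a stathmin that destabilises microtubules, at 0.26 (edgeR adjusted p = 0.393), and Map1a at 0.21 (adjusted p = 0.412). Tubb4a, the beta tubulin best known from oligodendrocytes, had 666 ± 41.4 CPM in WT against 654 ± 38.4 CPM in the KO-labelled group (log2 fold change -0.02), and Tubb2b lay at -0.16 (adjusted p = 0.487). Actin genes were similar, with 10 of 15 below WT and a median of -0.06. At an unadjusted edgeR p below 0.05, 2 of them were lower, against 5.05% of all genes tested. They were Ermn, the myelin actin-binding protein ermin (-0.42, edgeR adjusted p = 0.313), and Gsn, the actin-severing protein gelsolin (-0.23, adjusted p = 0.412). Actb lay at 859 ± 16.8 and 859 ± 30.4 CPM. Pfn2 lay at 0.12 (adjusted p = 0.541).

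Markers of oligodendrocytes lay below WT as Anln, Tppp3 and Arhgef10 did. The 18 genes of mature oligodendrocytes all had lower means than WT (median -0.41 on the log2 scale, and -0.23 without KO-labelled replicates 1 and 3). Those libraries were left out for their low oligodendrocyte signal, which fixes the direction of that shift. EdgeR called 0 of them, with 14 lower at an unadjusted p under 0.05, against 5.05% of all genes tested (Mal -0.46, Mobp -0.41, Gjc3 -0.49). Their summed level was 7659 to 8334 CPM in WT against 5020.3 to 6908 CPM in the KO-labelled group, lowest in replicates 1 and 3. The 10 precursor genes had a median of -0.27 (-0.11 without KO-labelled replicates 1 and 3), with 9 below WT, Sox10 at -0.48, C1ql1 at -0.50 and Olig2 at -0.20. Cspg4 lay above WT at 0.06 (edgeR adjusted p = 0.883) and Pdgfra at -0.24 (adjusted p = 0.487), with overlapping groups for both.

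Set against the mean log2 level of the 18 oligodendrocyte genes in the same library, the members took different positions. Their distance from that mean differed between the labelled groups by -0.01 for Arhgef10 and -0.09 for Anln, by -0.22 for Tppp3 and by 0.24 for Sept4. For Sept7, Tppp and Sept8 the distance differed by 0.51, 0.56 and 0.58, which is mainly the lower level of the 18 genes, since their own log2 fold changes were 0.08 to 0.15. In KO-labelled replicate 3, where the 18 genes were lowest (-0.71 against the WT mean), Anln stood at -0.69, Tppp3 at -0.81, Sept4 at -0.57 and Arhgef10 at -0.43. In KO-labelled replicate 2, where the 18 genes were nearest to WT (-0.15), Tppp3 (-0.57), Arhgef10 (-0.42) and Anln (-0.35) lay below them and Sept4 (0.19) above. Their position relative to the marker genes thus differed from library to library. The part of oligodendrocyte RNA in these differences was not tested.

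**Figure D4:**
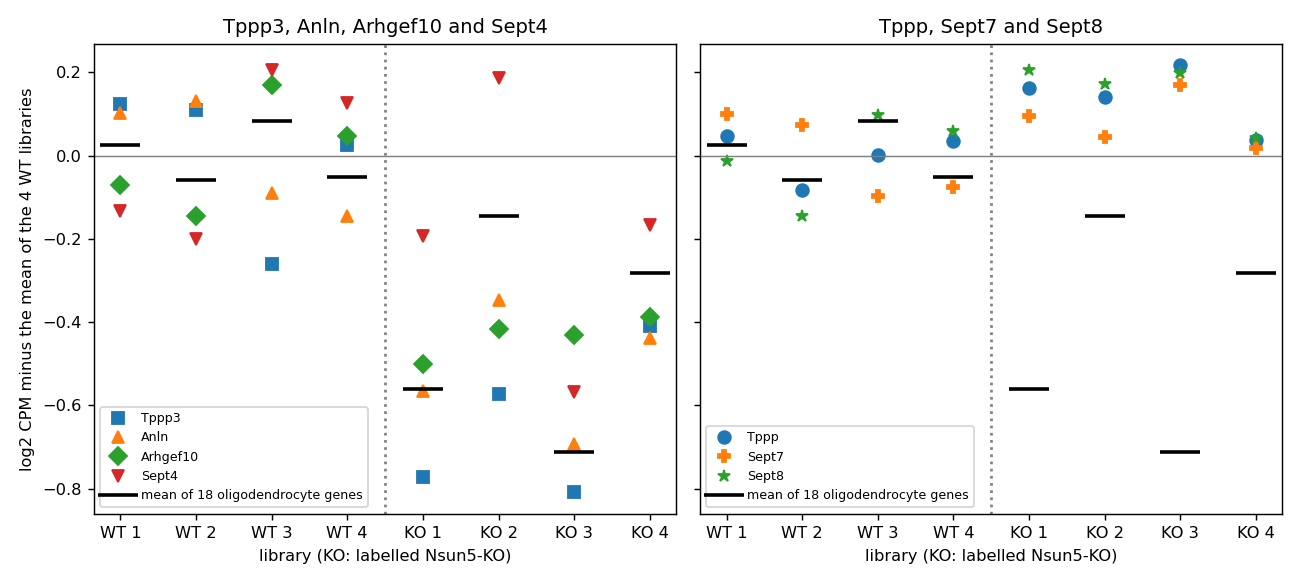
Log2 CPM of each tested member minus its WT mean (y axis) in the 8 libraries (x axis); black bars are the mean of 18 mature oligodendrocyte genes. In KO-labelled replicates 1 and 3 the bars stand at -0.56 and -0.71 with Anln beside them, while Tppp, Sept7 and Sept8 stay above 0.

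The likeness of the members to each other is given as a description. It was measured as the root mean square difference of log2 CPM over the 8 libraries after centring each gene, where a smaller value means a closer pattern. The measure includes the difference between the labelled groups, so the closeness of Anln, Tppp3 and Arhgef10 to each other, and their distance from Sept7, Sept8 and Tppp, are fixed in part by their selection on lower values. Sept8 and Tppp were the closest pair (0.05), followed by Sept7 and Tppp (0.09), and then Anln and Tppp3 (0.13). Sept4 was not close to any other member, with Arhgef10 the nearest at 0.23. Genes that vary little are close to each other for that reason: the own variation of Sept7, Sept8 and Tppp on this scale was 0.08 to 0.11, against 0.23 to 0.36 for the other tested members.

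Among 11399 protein-coding genes with a mean of at least 5 CPM, the nearest to Anln was Ermn, a cytoskeletal gene of myelin (0.06), then Pomt1 and Fbln5 (0.08 and 0.09). Ermn had 104, 105, 87.8 and 84.3 CPM in WT against 63.6, 83.1, 61.3 and 76.1 CPM in the KO-labelled group. WT replicates 1 and 2 and KO-labelled replicates 1 and 3 took the same ends of its range as for Anln, which its choice as the nearest pattern fixes. The nearest to Arhgef10 was Arpc1b (0.06), a subunit of the actin-nucleating Arp2/3 complex, followed by Prim1 and Lims2. The nearest to Tppp3 was the ephrin gene Efnb3 (0.09), then Evpl and Trim59. Sept4 was nearest to Qdpr (0.07), the dihydropteridine reductase gene, then 2510002D24Rik and Lrrc45. The nearest to Sept7 were Zdhhc2, Appbp2 and Cul5, to Sept8 Ablim1, Herc3 and Tollip, and to Tppp Ap3m2, Rab35 and Nrsn1, each at 0.02 to 0.03.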

How the data were processed

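Bulk RNA sequencing libraries of mouse brain were compared, 4 WT and 4 labelled Nsun5-KO, grouped by title. Reads were aligned with HISAT2 2.0.5 (build mm10) per the submitters' processing notes, and for the counting step and its annotation the tool is not given in the sources used here. Per the labels' protocols, a NEBNext Ultra RNA kit was used, and no strand setting is stated. The deposited counts are whole reads per gene, not normalised. In the deposited FPKM table each count is divided by the gene's length and 1 constant per library (0.9813 to 1.0220 times its total).

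The test was edgeR 4.0.16 (R 4.3.3): filterByExpr by group, TMM scaling, robust quasi-likelihood F test over all 8 libraries without covariates, Benjamini-Hochberg adjustment over the 16062 genes tested, called at an adjusted p below 0.05. CPM uses TMM-scaled library sizes. Exact two-sided permutations cover 70 labelings, with a smallest p of 0.0286. Members and gene lists were chosen with earlier results of these data known. Named genes are the 8 members, the other septins and septin regulators, and the 3 nearest genes in pattern to each member (log2 CPM, prior count 2). The 3 genes with the smallest p are named for the lists of cell division, exchange factors and effectors, microtubules, actin, oligodendrocytes and their precursors. Tppp2, Cit, Arhgef10l, Rhoa, Actb, Tubb4a, Cspg4, Pdgfra, Pifo and Dnah11 were chosen after their values were seen. Lists of astrocytes (median log2 fold change -0.04), microglia (-0.06), endothelial and mural cells (-0.08), meningeal fibroblasts (-0.28) and the hypothalamus (-1.92) were also computed. Some genes are not reported here.

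Alternatives were DESeq2 1.42.0, RLE and upper-quartile scaling, no low-count filter, limma 3.58.1 on log2(FPKM + 1) and log2(FPKM + 0.1), the replicate number as a block, and libraries left out. The edgeR fit was tested on simulated counts of this comparison with 15852 genes tested: recovery was 16% at 1.25-fold, 46% at 1.5-fold, 74% at 2-fold and 94% at 4-fold. Of the calls made on the simulated counts, 7.26% were false. Promoter windows are RefSeq's (GRCm38.p6), and exons are from GENCODE M21.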

Additional observations from a re-analysis of the deposited data

How the results depend on the processing

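EdgeR called 0 genes, against 97 by DESeq2 and 68 by edgeR with no low-count filter, and 0 to 2 with single libraries left out. The 2 calls were made without KO-labelled replicate 4. Of the 4 members not picked for their values, Sept7, Sept8 and Tppp lay above WT under all 17 alternatives. Sept4 turned from -0.17 to 0.01 without KO-labelled replicates 1 and 3, a fit on fewer samples, and Arhgef10 lay at -0.55 without WT replicates 1 and 2. Anln ranged from -0.57 to -0.39, Tppp3 from -0.72 to -0.50 and Arhgef10 from -0.55 to -0.35, with a direction that their selection fixed. List medians ranged from -0.15 to -0.01 for septin regulators, from -0.01 to 0.03 for microtubule genes and from -0.08 to -0.01 for actin genes. No alternative called Sept4, Sept7, Sept8 or Tppp (lowest adjusted p 0.522, 0.668, 0.379 and 0.360). With the replicate number as a block, edgeR called 0 genes, Tppp3 lay at -0.64, Anln at -0.51, Arhgef10 at -0.44, Sept4 at -0.18, Sept7 at 0.08, Sept8 at 0.15 and Tppp at 0.14. Same-numbered libraries had correlations of -0.115, -0.213, -0.041 and 0.063 after each group was centred, and libraries with different numbers had -0.167 to 0.182. These values show no pairing by number, but 4 pairs cannot exclude one. Sept2 did not pass the low-count filter of the main fit, and no alternatives are given for it. Tppp and Sept8 differed by less than the smallest fold simulated, at which 16% of genes were recovered. The changed genes were drawn from genes of many levels, so this share is not that of genes as abundant as Tppp and Sept8.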
